A study of Homo sapiens with 4 samples.

Results

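The transcripts of 39 genes of mismatch repair, base excision repair and nucleotide excision repair were compared between MDA-MB-231 cells transfected with an siRNA pool against AXL and the same cells transfected with a control siRNA. MDA-MB-231 is an established triple-negative breast cancer line, which carries the receptor tyrosine kinase AXL on its surface. The genes were chosen by symbol, as 5 of mismatch repair, 19 of base excision repair and 15 of nucleotide excision repair among the 63677 genes of the table, and all 39 passed the filter on low counts. The siCt group (control siRNA) and the siAxl group (pool against AXL) held 2 libraries each, numbered 1 and 2. Both groups are the same line, with no other allele or agent named in the labels, and the knockdown is transient and partial. Nothing in the labels says that the libraries of a group came from separate cultures, so the p-values measure only the spread between these libraries. With 2 against 2 libraries an exact two-sided permutation test of a single gene cannot go below p = 0.333, and the tests below come from a limma fit across all genes, which estimates the spread jointly.

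The 3 pathways remove different lesions and share their last steps. In mismatch repair, MutS-type dimers bind mispaired or looped bases left by the replication polymerases, and MutL-type dimers nick the new strand so that it can be removed and copied again. In base excision repair, a DNA glycosylase cuts a damaged base from its sugar, an AP endonuclease opens the strand at the empty site, and a short patch is filled and ligated, with PARP enzymes and XRCC1 gathering the factors at the break. In nucleotide excision repair, bulky lesions such as ultraviolet photoproducts are found by recognition factors or by a stalled RNA polymerase, the TFIIH helicases open the helix, and a pair of nucleases cuts out the damaged stretch.

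The libraries held 39574387 to 44585773 reads, and AXL was at 29189 and 30617 normalized counts in siCt and at 8658 and 7141 in siAxl, which is 26.4% of the siCt mean. Within a group the libraries differed beyond counting noise (chi-square per gene of 21.6 for siCt and 19.6 for siAxl), and between groups they differed more (35.6 to 63.2). The mesenchymal markers of the line, VIM, CD44 and FN1, were high in all 4 libraries, ESR1 and PGR were at 3 reads or fewer, and the low epithelial marker CDH1 was at 90.1 and 94.3 in siCt and 36.9 and 22.6 in siAxl. Of the 10 markers of the line 8 were tested, of which CDH1 fell and CAV1 (log2 fold change 0.34) and ERBB2 (0.26) rose, although ERBB2 was not called without siCt 2, siAxl 1 or siAxl 2 (adjusted p = 0.0763, 0.143 and 0.07002). Of 7 blood and stroma markers PECAM1 was at 0 and 4 were tested, with a median log2 fold change of 0.30 and summed normalized counts of 1649 and 1704 in siCt and 1479 and 1447 in siAxl, nearly all from COL1A1. COL1A1 fell (-0.25, adjusted p = 0.0378, and 0.116, 0.107 and 0.185 without siCt 2, siAxl 1 and siAxl 2, and 0.0662 in DESeq2), and none of the 4 rose in limma, edgeR or DESeq2 (1 at an unadjusted p under 0.05). A normalized count is a number of reads divided by the size factor of its library, and it compares a gene between libraries, not genes with each other. In bulk RNA a lower value cannot be told apart between fewer cells that make a transcript and less of it per cell.

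Of the 39 repair genes, 10 fell in siAxl and none rose. The 10 were TDG, NEIL3, NTHL1, PARP2, APEX2, APTX and APEX1 of base excision repair, PMS1 and MSH6 of mismatch repair, and GTF2H3 of nucleotide excision repair. TDG, the thymine DNA glycosylase, fell to 62.2% of its siCt mean, and the other 9 were at 72.3% to 87.1%. A call means an adjusted p under 0.05 (Benjamini-Hochberg, limma) over the 16064 genes tested. By this rule 7.91% of all tested genes were called lower and 10.8% higher, against 25.6% and 0 of the 39. Among the 10614 tested genes whose mean normalized count was at least that of the lowest repair gene, 10.8% were called lower. At an unadjusted p under 0.05, 16 of the repair genes were lower and 1, MPG, was higher, which was not counted over all genes. edgeR called 10 lower and none higher, beside 1270 lower and 1850 higher of all 16064 genes. DESeq2 called 8 lower and none higher, beside 1110 lower and 1488 higher of the 12949 genes with an adjusted p. With any library left out, fewer of the 39 were called lower, with TDG called each time. Without siCt 2, siAxl 1 or siAxl 2 fewer of all tested genes were called lower too. Without siAxl 1 the share of the 39 called lower was about that of all tested genes. Testing every gene with at least 1 read left 2 of the 39, TDG and PARP2, beside 340 of all 27108 genes. All 10 stayed below zero in every one of these settings.

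The 3 pathways differed in the share of their genes that fell, although the difference between pathways was not itself tested. In mismatch repair 2 of 5 genes fell (40.0%), with a median log2 fold change of -0.22 over the 5. In base excision repair 7 of 19 fell (36.8%), with a median of -0.21, and 17 of the 19 estimates were below zero. In nucleotide excision repair 1 of 15 fell (6.67%), the estimates were below zero for 6 genes and above for 9, and their median of 0.027 became -0.0024 when the libraries were scaled by size alone and -0.025 without siAxl 2. Over all tested genes 7.91% were called lower, near the share in nucleotide excision repair, and the median was -0.0022. Without siCt 2, siAxl 1 or siAxl 2 fewer genes were called lower in each of the 3 pathways, as over all tested genes, and none in nucleotide excision repair.

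**Figure D1:**
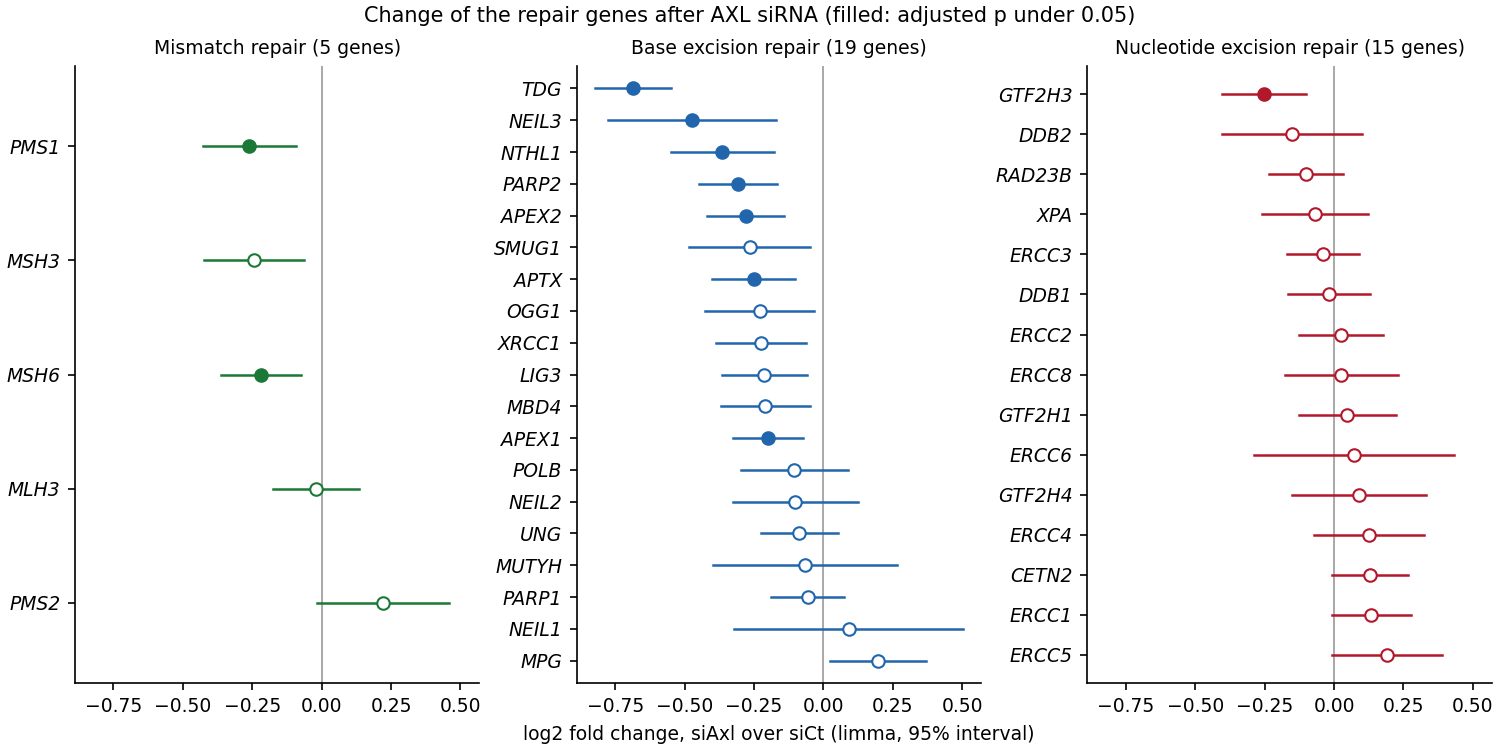
Log2 fold change of each of the 39 genes, siAxl over siCt, with its 95% interval from limma, in a panel for each pathway and sorted within it, where filled points have an adjusted p under 0.05. Most points of the mismatch and base excision repair panels lie left of zero, TDG farthest at -0.69, while those of nucleotide excision repair lie on both sides.

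Counted by library instead of by test, both siAxl libraries were below both siCt libraries for 21 of the 39 genes, above them for 7, and overlapping for 11. Over all tested genes, 30.5% had both siAxl libraries below and 30.6% above. In base excision repair the counts were 15 below, 1 above and 3 overlapping, in mismatch repair 3, 1 and 1, and in nucleotide excision repair 3, 5 and 7.

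**Figure D2:**
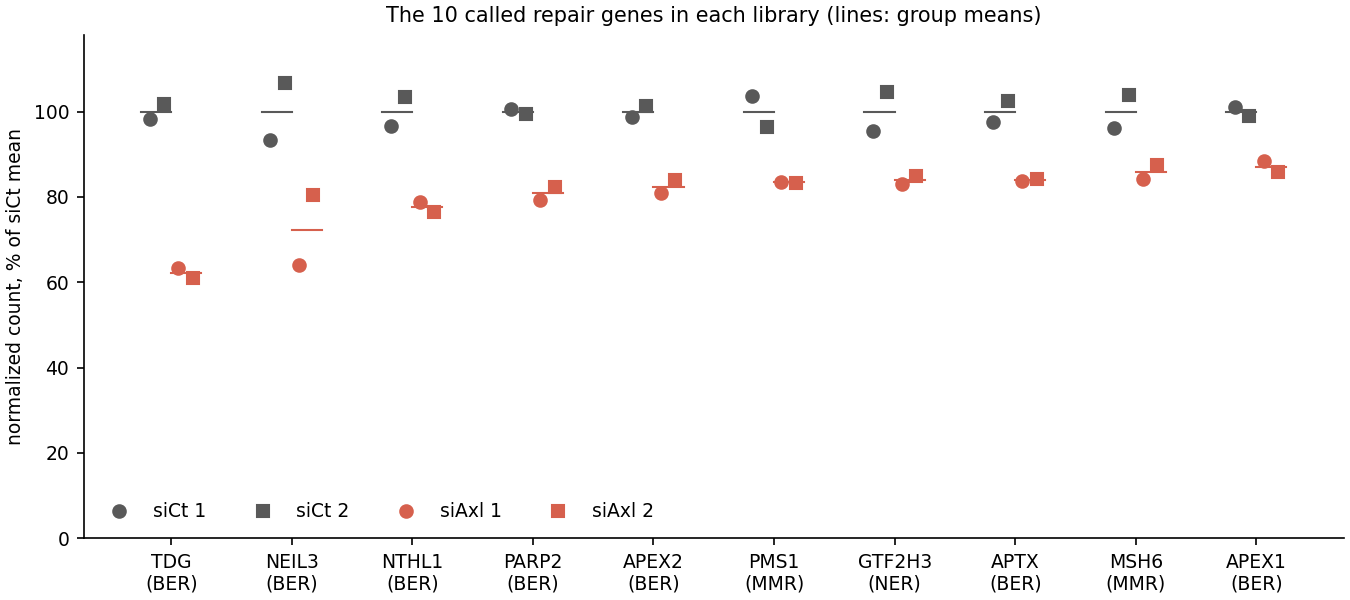
Normalized count of the 10 genes that fell, as a percent of each gene's siCt mean, in the 4 libraries (circles for replicate 1, squares for replicate 2, lines for group means; MMR, BER and NER stand for mismatch, base excision and nucleotide excision repair). The siCt libraries lie between 93.3% and 107% and the siAxl libraries between 61.0% and 88.5%, and the groups overlap for no gene.

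The promoters of these genes are shown for a sequence that the counts can be set beside. E2F factors drive genes of the G1/S transition, and their sites were searched on both strands as the words TTTCCCGC, TTTGGCGC, TTTCGCGC and TTTGCCGC, in RefSeq windows of 250 bases before to 50 bases after the start site (GRCh38.p14). Of the 39 genes 36 had such a window. The words stood in windows of 4 of the 36, MSH3, MSH6, PMS2 and UNG, and in those of 6.49% of the 10282 tested genes with a window (3.31% of all 35116 windows). Of the 10 genes that fell, only MSH6 held a word, against 3 of the 26 others, and the 15 genes of nucleotide excision repair held none. The windows are chr5:80654402-80654701 (plus strand) for MSH3, chr2:47782895-47783194 (plus) for MSH6, chr7:6009057-6009356 (minus) for PMS2, chr12:109097922-109098221 (plus) for UNG and, as the gene with the largest change and no word, chr12:103965622-103965921 (plus) for TDG. The capitals mark the words, which begin at -107 and, on the other strand and overlapping it, at -103 from the start site in MSH3, at +4 in MSH6, at -43 in PMS2 and at -63 in UNG. Another PMS2 window, which overlaps the one shown, holds the same word at -100 from its own start site.
MSH3: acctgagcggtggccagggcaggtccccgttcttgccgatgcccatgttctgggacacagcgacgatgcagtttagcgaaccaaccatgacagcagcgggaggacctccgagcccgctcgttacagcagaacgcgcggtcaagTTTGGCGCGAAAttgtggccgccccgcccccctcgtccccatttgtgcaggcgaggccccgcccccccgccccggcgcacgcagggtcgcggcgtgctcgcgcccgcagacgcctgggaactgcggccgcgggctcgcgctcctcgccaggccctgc
MSH6: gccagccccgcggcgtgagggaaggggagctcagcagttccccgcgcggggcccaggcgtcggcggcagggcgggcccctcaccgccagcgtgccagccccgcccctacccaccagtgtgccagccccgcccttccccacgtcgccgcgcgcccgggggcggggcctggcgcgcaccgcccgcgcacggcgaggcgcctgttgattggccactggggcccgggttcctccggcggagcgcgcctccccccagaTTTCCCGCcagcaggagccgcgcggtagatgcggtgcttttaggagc
PMS2: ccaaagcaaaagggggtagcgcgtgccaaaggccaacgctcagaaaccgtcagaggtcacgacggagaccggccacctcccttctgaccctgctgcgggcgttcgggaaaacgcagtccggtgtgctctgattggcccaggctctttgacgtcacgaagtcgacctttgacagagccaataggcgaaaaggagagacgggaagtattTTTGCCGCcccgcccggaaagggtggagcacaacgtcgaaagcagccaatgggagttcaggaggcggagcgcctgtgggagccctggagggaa
UNG: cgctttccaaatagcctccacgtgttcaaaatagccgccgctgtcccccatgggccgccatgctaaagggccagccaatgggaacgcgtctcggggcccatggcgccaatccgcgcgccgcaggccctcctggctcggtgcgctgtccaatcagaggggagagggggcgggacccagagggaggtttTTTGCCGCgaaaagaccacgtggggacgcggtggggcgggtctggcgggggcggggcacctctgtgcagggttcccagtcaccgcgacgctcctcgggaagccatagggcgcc
TDG: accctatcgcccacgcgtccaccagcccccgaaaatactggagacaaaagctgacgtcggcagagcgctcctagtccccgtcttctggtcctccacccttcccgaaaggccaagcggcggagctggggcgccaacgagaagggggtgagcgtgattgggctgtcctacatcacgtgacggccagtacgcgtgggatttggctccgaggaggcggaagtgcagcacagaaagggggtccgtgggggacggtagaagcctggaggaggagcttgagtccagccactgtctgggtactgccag
Only for MSH6 among the 4 did the transcript pass the test. A match of letters is a description and no evidence of binding. Other promoter words gave 7 of the 10 fallen genes and 15 of the 26 others with a CCAAT box (CCAAT), against 43.1% of tested genes, and 1 of 10 and 6 of 26 with a CHR element (TTTGAA), against 14.1%. The NRF1 word GCGCATGC stood in 1 of 10 and 3 of 26, against 6.26%, and the GC box GGGCGG in 8 of 10 and 22 of 26, against 75.8%.

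In mismatch repair, MSH6 and PMS1 fell and no gene rose, at an unadjusted p under 0.05 either. MSH6, the partner in the MutS-type dimer that reads base mismatches and short loops, was at 5854 and 6317 normalized counts in siCt and at 5122 and 5326 in siAxl. The groups did not overlap, and the log2 fold change was -0.22 (SE 0.061, limma adjusted p = 0.0470). PMS1, a MutL-type protein whose part in human mismatch repair is minor, was at 1268 and 1179 in siCt and at 1021 and 1019 in siAxl. The means were 1223 ± 62.8 and 1019.9 ± 1.27 (SD, n = 2), a log2 fold change of -0.26 (SE 0.071, adjusted p = 0.0441). MSH6 was called without siCt 1 but not without siCt 2, siAxl 1 or siAxl 2 (adjusted p = 0.215, 0.218 and 0.107), and PMS1 was called only without siCt 2, with 0.145, 0.161 and 0.153 without siCt 1, siAxl 1 and siAxl 2. PMS1 was also not called after TMM scaling (adjusted p = 0.05005) or by DESeq2 (adjusted p = 0.0803).

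MSH3, which replaces MSH6 in the dimer for larger loops, was at 1593 and 1636 in siCt and at 1285 and 1443 in siAxl. The estimate of -0.25 (SE 0.076) was near that of PMS1, with siAxl below siCt in every library, but it did not pass the test (adjusted p = 0.0661). Scaling by library size or upper quartile brought the adjusted p to 0.0420 and 0.0437, and leaving out siCt 1 to 0.0415. PMS2, the nuclease of the main MutL-type dimer, was at 354 and 369 in siCt and at 447 and 398 in siAxl, the only gene of the 5 with both siAxl libraries higher (log2 fold change 0.22, SE 0.10, adjusted p = 0.175). PMS2 has near-identical pseudogene copies, of which PMS2CL, PMS2P3 and PMS2P1 held 366.5, 159.5 and 108.5 reads on average, so its value is uncertain. MLH3, the MutL-type partner best known from meiosis, differed least, with values between 1147 and 1183 in the 4 libraries (95% interval of the log2 fold change -0.17 to 0.13).

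Base excision repair begins with the glycosylases, 11 of the 19 genes, of which TDG, NEIL3 and NTHL1 fell. TDG removes thymine from G:T mispairs and the oxidised cytosines made in active demethylation. It was at 3588 and 3719.7 in siCt and at 2315 and 2228 in siAxl, with a wide gap between the groups and little spread within them (3654 ± 93.0 and 2271 ± 62.1, SD, n = 2). The log2 fold change was -0.69 (SE 0.058, adjusted p = 0.00179, 95% interval -0.82 to -0.55), and TDG was called in 14 of 14 alternative settings. It was the only one of the 39 genes at an adjusted p under 0.01. No annotated exon of another gene overlaps TDG, and its pseudogene TDGP1 held 17.25 reads on average.

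NEIL3, a glycosylase of oxidised bases that acts on single-stranded DNA and on crosslinks at forks, was at 639 and 730.3 in siCt and at 438 and 551 in siAxl. It had the second lowest ratio, 72.3% of siCt, and the widest spread of the 10 genes that fell, with a log2 fold change of -0.47 (SE 0.13, adjusted p = 0.0439). Without siAxl 1 the estimate was -0.31 (adjusted p = 0.178). NTHL1, which removes oxidised pyrimidines, was at 799.7 and 857 in siCt and at 654 and 633 in siAxl (log2 fold change -0.36, SE 0.079, adjusted p = 0.0228). NTHL1 shares 16.5% of its exon bases with TSC2 on the opposite strand, which held 4473.5 reads on average and rose by 0.28 on the log2 scale (adjusted p = 0.0241). Whether reads were counted by strand is not given in the sources used here, so the reads of such pairs cannot be told apart. The call of NTHL1 was lost without siCt 2, siAxl 1 or siAxl 2 (adjusted p = 0.0586, 0.0726 and 0.0956).

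The other 8 glycosylases did not pass the test. SMUG1, which excises uracil and oxidised uracil, had the largest of their estimates, with 449.7 and 483 in siCt against 395 and 380.3 in siAxl (log2 fold change -0.27, SE 0.092, adjusted p = 0.0892). OGG1, the 8-oxoguanine glycosylase, was at 958 and 879 in siCt and at 754 and 812 in siAxl (-0.23, SE 0.083, adjusted p = 0.0967), and it shares 24.96% of its exon bases with CAMK1. Both had siAxl below siCt in every library. The remaining estimates ran from -0.21 for MBD4, which like TDG acts on G:T mispairs, over UNG, the main uracil glycosylase (-0.087), NEIL2 (-0.10) and MUTYH (-0.065), to 0.091 for NEIL1 and 0.20 for MPG, the glycosylase of alkylated purines. NEIL1, NEIL2 and MUTYH overlapped between the groups. MPG was the only glycosylase with both siAxl libraries above both siCt libraries, at 1923 and 1723 against 1583 and 1592 (adjusted p = 0.104).

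Downstream of the glycosylases all 8 estimates were below zero, with siAxl below siCt in every library, and 4 genes fell. Over all tested genes 30.5% had both siAxl libraries below both siCt libraries, and 7.91% were called lower. APEX1, the main AP endonuclease, was at 7338 and 7179 in siCt and at 6425 and 6222 in siAxl. This was 87.1% of siCt, the smallest change that passed the test (log2 fold change -0.20, SE 0.053, adjusted p = 0.0418), and the call was lost without any of siCt 1, siCt 2, siAxl 1 or siAxl 2 (adjusted p = 0.125, 0.0877, 0.133 and 0.208). APEX2, its relative with a stronger exonuclease, was at 2644 and 2715 in siCt and at 2167 and 2247 in siAxl (-0.28, SE 0.058, adjusted p = 0.0201, and 0.113 and 0.0600 without siAxl 1 or siAxl 2). PARP2, which senses strand breaks and adds ADP-ribose chains, was at 2199.7 and 2172 in siCt and at 1734 and 1799 in siAxl. Its log2 fold change was -0.31 (SE 0.060, adjusted p = 0.0158), and it lost its call without siAxl 1 (adjusted p = 0.0910). PARP1, its more abundant relative, was at 6811 and 6872 against 6397 and 6760.4, an estimate of -0.057 with a 95% interval of -0.19 to 0.07, and the difference between the PARP genes was not tested.

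APTX, aprataxin, which clears abortive ligation ends, was at 1631 and 1711 in siCt and at 1401 and 1406 in siAxl (log2 fold change -0.25, SE 0.063, adjusted p = 0.0352). Its call was lost without siCt 2, siAxl 1 or siAxl 2 (adjusted p = 0.130, 0.149 and 0.131) and in DESeq2 (adjusted p = 0.0593). The scaffold XRCC1 and the ligase LIG3, which work as a complex, had like estimates of -0.23 and -0.21 and missed the threshold (adjusted p = 0.0626 and 0.0624). POLB, the gap-filling polymerase, had an estimate of -0.10 (adjusted p = 0.422). Between XRCC1, LIG3 and POLB the 95% intervals spanned -0.39 to 0.09.

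In nucleotide excision repair GTF2H3 fell and no gene rose, at an unadjusted p under 0.05 either. GTF2H3, the p34 subunit of TFIIH, was at 3757 and 4123 in siCt and at 3270.1 and 3343 in siAxl, with no overlap between the groups. The log2 fold change was -0.25 (SE 0.065, adjusted p = 0.0368), and the call was lost without siCt 2, siAxl 1 or siAxl 2 (adjusted p = 0.160, 0.149 and 0.0986). The other TFIIH genes, the helicases ERCC2 and ERCC3 and the subunits GTF2H1 and GTF2H4, had estimates between -0.039 and 0.089 and none was called by limma, edgeR or DESeq2. GTF2H4 stood in 6 rows of the table and shares 79.0% of its exon bases with VARS2 on the same strand, so its value is uncertain.

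Of the recognition factors none passed the test in limma, edgeR or DESeq2, and none had an unadjusted p under 0.05. DDB2, which binds ultraviolet photoproducts, had the largest estimate, at 841 and 704 in siCt and 726 and 660.3 in siAxl, which overlapped (log2 fold change -0.15, SE 0.11, adjusted p = 0.365). DDB1, its abundant partner, had an estimate of -0.018, RAD23B, a ubiquitin-binding protein of the damage recognition complex, of -0.10, and CETN2, centrin, of 0.13. The genes of the transcription-coupled branch, ERCC6 and ERCC8, overlapped between the groups with estimates of 0.072 and 0.027, as did XPA, which verifies the lesion, at -0.067. The widest of these intervals was that of ERCC6, -0.29 to 0.43.

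The 3 incision genes had both siAxl libraries above both siCt libraries, as did 30.6% of all tested genes. None of the 3 passed the test and none had an unadjusted p under 0.05. ERCC5, the nuclease that cuts 3′ of the lesion, was at 535 and 506 in siCt and at 607 and 582 in siAxl (log2 fold change 0.19, SE 0.084, adjusted p = 0.160). ERCC1 and ERCC4, which form the nuclease that cuts on the 5′ side, had estimates of 0.13 each (adjusted p = 0.168 and 0.339). ERCC1 shares 28.6% of its exon bases with CD3EAP on the opposite strand, which fell by 0.42 on the log2 scale (adjusted p = 0.0111), and ERCC5 shares 19.1% with BIVM. In all, 10 of the 39 genes overlap a gene of at least 100 reads over 10% or more of their exon bases, among them MSH6 with FBXO11 (16.2%), LIG3 with RFFL (29.1%), MPG with NPRL3 (27.3%), NEIL1 with MAN2C1 (26.4%) and MUTYH with TOE1 (14.1%).

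Levels were compared between genes as normalized counts per kb of transcript. APEX1 had the highest level (4576 per kb over the 4 libraries), then DDB1 (3813), RAD23B (3334), CETN2 (1728) and PARP1 (1695). At the low end stood ERCC6 (64.5 per kb), ERCC4 (87.9), ERCC5 (109.7), PMS2 (137) and LIG3 (141). The 10 genes that fell ranged from APEX1 at rank 1 to NEIL3 at rank 29 of 39. The 10 lowest genes by level per kb held none that fell, which is near the 7.91% called lower over all tested genes. A relation between level and change was not tested.

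**Figure D3:**
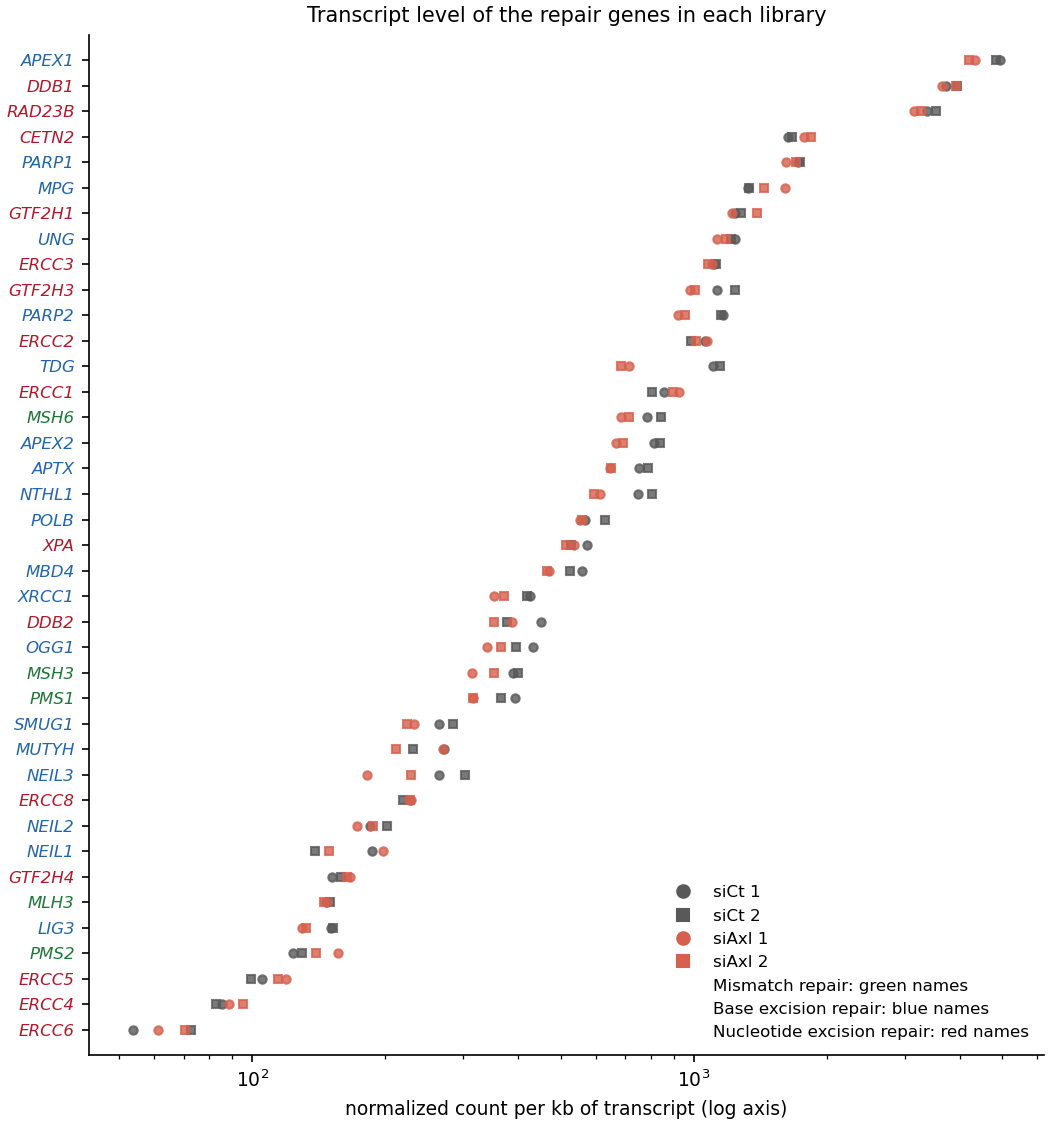
Level of each of the 39 genes in the 4 libraries, as normalized count per kb of transcript on a log axis (grey for siCt, red for siAxl, circles for replicate 1 and squares for replicate 2), sorted by mean, with gene names coloured by pathway. The range runs from 64.5 for ERCC6 to 4576 for APEX1, and the gap between the groups is widest for TDG.

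The genes that act beside the 39 were looked at as lists, which, like those of replication and mitosis, were chosen with earlier results of these data known. Over all tested genes limma called 7.91% lower and 10.8% higher. Of 20 genes of the resynthesis step that the 3 pathways share with replication, 11 fell and none rose (12 and 0 at an unadjusted p under 0.05, and 11 and 0 in edgeR and in DESeq2), with a median log2 fold change of -0.25. They included the clamp loader subunits RFC5 (-0.49, adjusted p = 0.00354) and RFC4 (-0.45, adjusted p = 0.00509) and the polymerase delta subunit POLD3 (-0.45, adjusted p = 0.00517). Of 5 further genes of base excision repair, TDP1, which removes topoisomerase from DNA ends, rose (0.29, adjusted p = 0.0353, and 0.186 without siAxl 2), no gene fell in limma, edgeR or DESeq2 or at an unadjusted p under 0.05, and the median was 0.010. Of 11 further genes of nucleotide excision repair 1 fell, in limma, edgeR and DESeq2 alike, and 1, the TFIIH kinase CDK7, rose (0.22, adjusted p = 0.0427), and the median was -0.055. The call of CDK7 was lost in DESeq2 (adjusted p = 0.0797), with scaling by upper quartile or library size (0.0505 and 0.0572) and without siCt 1, siCt 2, siAxl 1 or siAxl 2 (adjusted p = 0.1003, 0.0715, 0.225 and 0.125). Of the 3 genes that reverse damage directly, ALKBH2 fell (-0.31, adjusted p = 0.0464), but it was not called by edgeR or DESeq2 (adjusted p = 0.0546 and 0.124), with TMM scaling (0.0537) or when any 1 of the 4 libraries was left out (0.0583 to 0.208), and ALKBH3 did not pass. Over these 4 lists 13 of 38 tested genes fell and 2 rose, against 5 and 1 without siAxl 1, and the count that rose was 1, 1 and 0 without siCt 1, siCt 2 and siAxl 2. MGMT, the alkylguanine transferase, was chosen here after its values were seen. It had 1 and 1 reads in siCt and 5 and 1 in siAxl and was not tested.

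Most genes of replication start and some of mitosis fell beside the repair genes. Over all tested genes limma called 7.91% lower, and 30.5% had both siAxl libraries below both siCt libraries. Of 19 genes that license and fire replication origins, 15 fell and none rose (18 and 0 at an unadjusted p under 0.05, 16 and 0 in edgeR, 12 and 0 in DESeq2), and all 19 had both siAxl libraries below both siCt libraries, with a median of -0.36. MCM10 (-0.64, adjusted p = 0.00212), MCM3 (-0.42, adjusted p = 0.00376) and CDC6 (-0.47, adjusted p = 0.00384) had the smallest adjusted p. Their summed normalized counts were 61733 and 62309 in siCt and 48577 and 50544 in siAxl. Of 12 mitotic genes 4 fell and none rose (7 and 0 at an unadjusted p under 0.05, 4 and 0 in edgeR, 7 and 0 in DESeq2), with a median of -0.30, and their sums were 80733 and 89067 in siCt and 64285 and 77776 in siAxl. AURKB fell by 0.38, CDC20 by 0.39 and CCNB1 by 0.39 on the log2 scale (adjusted p = 0.00859, 0.0233 and 0.0360). Without siAxl 1 the adjusted p of CDC20 was 0.0864 and that of CCNB1 0.132. Replication start then had 7 fallen genes and mitosis 1, against 9 and 8 without siAxl 2, and mitosis had 9 without siCt 1. For comparison the summed counts of the 5 mismatch repair genes were 10229 and 10685 in siCt and 9040.2 and 9333 in siAxl, those of the 19 base excision repair genes 37504 and 37505 against 32614 and 32712, and those of the 15 nucleotide excision repair genes 55145 and 56721 against 53866 and 55804. The part of the replication and mitosis transcripts in the values of the repair genes was not tested.

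**Figure D4:**
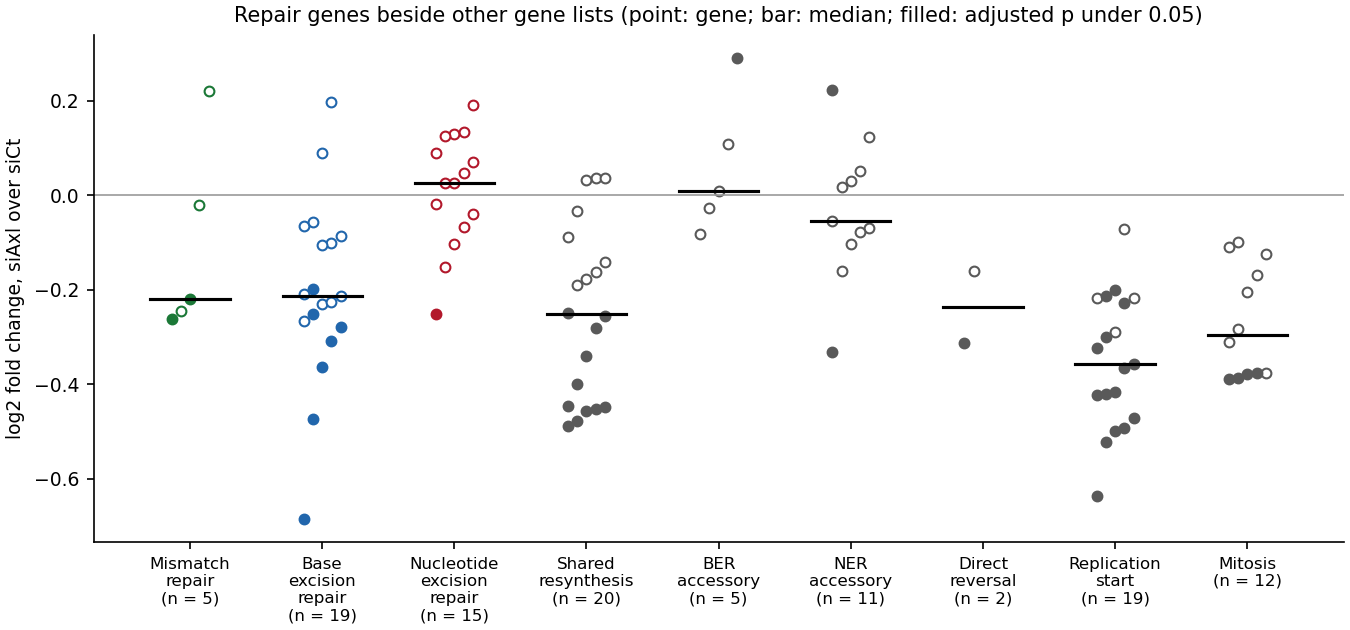
Log2 fold change, siAxl over siCt, of each gene in the 3 repair pathways and in 6 further lists (points, filled at an adjusted p under 0.05, with bars at the medians; BER and NER stand for base excision and nucleotide excision repair). The medians are -0.22, -0.21 and 0.027 in the 3 pathways, the last turning to -0.0024 with scaling by library size alone, -0.25 for shared resynthesis and -0.36 for replication start.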

How the data were processed

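RNA sequencing libraries of siCt and siAxl cells were prepared by the authors, who deposited 1 table. Its signal columns are read counts per gene that the authors divided by DESeq2 size factors. The submitters' processing notes name CASAVA 1.8, TopHat2 2.0.10, HTSeq 0.5.3, DESeq2 1.4.5 and GRCh37, and the annotation and strand setting are not given in the sources used here. The authors' own columns of log2 fold changes, their errors, test scores and p-values were not used. Per-sample columns not used numbered 0.

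All values (100%) were whole multiples of 1 read within 0.01, so reads were recovered by division. Groups follow the labels. The deposited values were tested as log2(normalized count + 1) with limma 3.58.1 (lmFit, eBayes with trend, R 4.3.3), siAxl against siCt, on the 16064 of 63677 genes that passed filterByExpr of edgeR 4.0.16, with Benjamini-Hochberg adjustment. Fold changes on this scale understate those of low genes. edgeR and DESeq2 1.42.0 on recovered reads, other scalings, pseudocounts, filters, a stricter threshold and leaving out each library were alternatives. Only the main limma fit was checked on simulated data, and the alternatives were not. Intervals are limma's 95% intervals.

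The members and lists were chosen with earlier results of these data known. Named with full values are called members, the 2 uncalled members of each pathway with the largest change, and up to 3 genes per list with the smallest adjusted p. CETN2 and GTF2H4 stood in several rows, of which the highest was used. Transcript lengths and exon overlaps came from GENCODE 29 by gene identifier, and promoters from RefSeq (GRCh38.p14) by symbol. Their coordinates were not joined with GRCh37. Some list genes and overlapping genes are not reported here.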

Additional observations from a re-analysis of the deposited data

How the results depend on the processing

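With 2 libraries per group, each gene has only 2 residual degrees of freedom. The limma fit borrows spread from all genes, for a total of 7.1, and low genes have wide intervals. The direction of the 10 fallen repair genes and of the medians of mismatch and base excision repair held under all alternatives run. Every alternative planned was run. In all 3006 genes were called, 1271 lower and 1735 higher (57.7% higher), against 1745 lower and 1536 higher (46.8% higher) with scaling by library size alone, and no scaling moved the median of all genes beyond -0.031. Testing every gene with at least 1 read called 1097 genes, with 0, 2 and 0 genes lower in mismatch, base excision and nucleotide excision repair, and in the lists 4 other repair genes lower and 0 higher, 8 replication start genes and 1 mitosis gene. This test covers 27108 genes. An adjusted p under 0.01 called 859 genes, with 0, 1 and 0 in the 3 pathways, 5 and 0 of the other repair genes, 6 of replication start and 1 of mitosis. Mismatch repair had 1 lower gene with TMM scaling and 1 with DESeq2. Of the other repair genes (13 lower, 2 higher), 1 was higher with upper quartile scaling, 1 with library size and 1 with DESeq2, which called 7 mitosis genes. Leaving out a library gave 1301 to 3900 genes in the whole table, 0 to 2, 1 to 6 and 0 to 1 lower in the 3 pathways, 5 to 12 lower and 0 to 1 higher of the other repair genes, 7 to 12 of replication start and 1 to 9 of mitosis. The lone library left in a group is then taken to vary like the other group. The cause of these changes was not tested. The library names share the numbers 1 and 2, and deviations of same-numbered libraries from their group means correlated at 0.27 over 16064 genes, a hint and not a stated pairing. With the replicate number as a block 7310 genes were called, 3573 lower and 3737 higher of the 16064 tested. Lower were 3 in mismatch repair (MSH6, PMS1 and MSH3), 12 in base excision repair, 2 in nucleotide excision repair and 12 of mitosis. The limma adjusted p of MSH3 was 0.000127 in this fit. Of the repair genes 5 were higher (PMS2, MPG, CETN2, ERCC1 and ERCC5). In this fit the share of repair genes called higher was below that of all tested genes. The share of nucleotide excision repair genes called lower was below that of all tested genes too.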

Other observations

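The 3′ UTR of PMS2 was the only one among the 39 repair genes that held the word CACATCA, a word chosen because earlier results of these data named it. Of 13024 tested genes with a protein-coding reference transcript, 1308 hold it in the 3′ UTR. Their median log2 fold change, siAxl over siCt, was 0.12, against -0.0088 for the 11716 others. Because the word was taken from these same data, this difference is no independent result. PMS2 had the highest estimate of the 39, 0.22, and did not pass the test. Its value is uncertain because of its pseudogene copies, and a link between the word and its estimate was not tested.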
